A study of Saccharomyces cerevisiae with 10 samples.

Results

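The RNAs described here are the noncoding RNAs at the core of the spliceosome, the signal recognition particle (SRP), RNase P, RNase MRP and telomerase of budding yeast. They were chosen by name, as 10 genes: snR19 (U1), LSR1 (U2), snR14 (U4), snR7-L and snR7-S (the long and short forms of U5), snR6 (U6), SCR1 (the RNA of SRP), RPR1 (RNase P), NME1 (RNase MRP) and TLC1 (telomerase). Of these, 9 had a row among the 7032 features of the table, and TLC1 was not analysed here. Of the 9, 6 were above 0 TPM in every library and 3, snR14, snR7-S and snR6, were listed at 0 in every library.

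Total RNA depleted of rRNA was sequenced from 5 cultures of [BIG+] cells, which carry a heritable prion state, and from 5 cultures of naive cells, which carry none. The labels give both groups the BY4741 background, a haploid laboratory strain, and the wild-type genotype, with the library stem YDJ1952 for [BIG+] and YDJ128 for naive. Each culture came from its own colony and was grown in rich medium (YPD) at 30 °C to an OD of 1.0. If the stems name separate stocks, the prion state and any other difference between them cannot be told apart. LEU2, MET17 and URA3, deleted in BY4741, were listed at 0 in all 10 libraries, and the a-cell receptor gene STE2 was between 271.7 and 359 TPM in [BIG+] and between 232 and 373 TPM in naive libraries. HIS3, which this strain lacks in part, was at 18.4 to 55.0 TPM in [BIG+] and at 20.4 to 51.2 TPM in naive libraries. The a-factor genes MFA1 and MFA2 were listed at 0, as were other features of their short length. Values are TPM, a measure of abundance scaled by transcript length and then to a fixed sum within each library. TPM keeps no sequencing depth, so the depth behind each value is unknown and no counting interval is given.

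The spliceosome removes introns with 5 small nuclear RNAs. U1 first pairs with the 5′ splice site and U2 with the branch site; U4 and U6 arrive paired with each other in a complex with U5, and U6 is then freed from U4 and becomes part of the catalytic core. SRP takes nascent secretory proteins to the endoplasmic reticulum; RNase P trims the 5′ ends of tRNA precursors, and RNase MRP, a relative that shares most of its proteins, cuts the precursor of rRNA. SCR1, RPR1 and snR6 are made by RNA polymerase III and the others by RNA polymerase II.

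The starts of U1 and U2 are shown for the bases that pair with the intron. Capitals mark the run ACTTACCT, which pairs with the 5′ splice site, and the run GTAGTA, which pairs with the branch site. All sequences are of the RNA-coding strand, 5′ to 3′, written with T for U, from the RefSeq genome of build R64.
snR19, bases 1 to 40: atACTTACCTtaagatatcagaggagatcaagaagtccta
LSR1, bases 1 to 60: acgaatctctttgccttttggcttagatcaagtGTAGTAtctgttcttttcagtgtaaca
On the sense strand, 1 of 6477 annotated genes, snR19 itself, held ACTTACCT in its first 40 bases (0.0154%), and 61 of 6475 held GTAGTA in the first 60 bases (0.942%). On the opposite strand of these windows of snR19 and LSR1 each run occurred 0 times, and the runs do not overlap another that was searched.

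U6 and U4 are shown whole because both were listed at 0. In snR6 the capitals mark the box ACAGAGA, which pairs with the 5′ splice site, and the longest run of perfect base pairs with U4 (11 bases, U6 bases 70 to 80). In snR14 they mark the matching run (U4 bases 1 to 11).
snR6, 112 bases: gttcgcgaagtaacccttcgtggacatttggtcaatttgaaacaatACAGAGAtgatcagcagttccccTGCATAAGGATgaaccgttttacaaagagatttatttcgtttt
snR14, 160 bases: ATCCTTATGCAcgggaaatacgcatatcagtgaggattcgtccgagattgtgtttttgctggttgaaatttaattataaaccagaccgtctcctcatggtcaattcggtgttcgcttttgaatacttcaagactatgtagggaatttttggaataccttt
Of 6119 annotated genes of at least that length, 71 held ACAGAGA on the sense strand of their first 112 bases (1.16%). That box occurred 0 times on the opposite strand of snR6.

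The long form of U5 is shown with the 35 bases that the short form lacks in capitals. The short form is the first 179 bases of the same RNA, so every base of snR7-S is also a base of snR7-L.
snR7-L, 214 bases: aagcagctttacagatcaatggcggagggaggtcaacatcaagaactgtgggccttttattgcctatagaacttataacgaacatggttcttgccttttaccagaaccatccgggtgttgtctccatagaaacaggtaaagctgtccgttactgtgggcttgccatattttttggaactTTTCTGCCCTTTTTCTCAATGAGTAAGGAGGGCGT

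Of the RNAs of RNase P (369 bases) and RNase MRP (340 bases), whose ratio is compared between the states, the stretch around the longest run they share is shown. Capitals mark that run, TTCCGTTTG, with 60 bases on either side. Over a global alignment of the whole RNAs, 206 of 426 columns were identical (48.4%). How often unrelated RNAs of these lengths share such a run or such an identity was not tested.
RPR1, bases 201 to 329: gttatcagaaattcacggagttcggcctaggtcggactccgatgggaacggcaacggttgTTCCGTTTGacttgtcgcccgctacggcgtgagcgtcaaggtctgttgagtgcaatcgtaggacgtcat
NME1, bases 177 to 305: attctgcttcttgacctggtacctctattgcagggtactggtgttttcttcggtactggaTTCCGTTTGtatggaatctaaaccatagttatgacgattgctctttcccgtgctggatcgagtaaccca

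The question for each RNA was its level in the 2 states and whether the states differed by more than the spread between cultures. In R64 the genes lie as follows: LSR1 on chromosome II (680688 to 681862, minus strand, 1175 bases), RPR1 on V (117667 to 118035, minus), SCR1 on V (441987 to 442508, plus, 522 bases), snR14 on V (167427 to 167586, minus), snR7-L on VII (939459 to 939672, minus), snR6 on XII (366235 to 366346, plus), snR19 on XIV (230105 to 230672, minus, 568 bases) and NME1 on XIV (585587 to 585926, plus). Apart from the U5 forms, which overlap each other, none of the 9 overlaps another annotated gene. The use of strand in counting is not given in the sources used here.

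The 6 RNAs above 0 were among the most abundant features of the table. SCR1 ranked first of all features, with a mean of 178460 ± 39228 TPM over the 10 libraries (SD). snR19 ranked 7th (14501 ± 2070 TPM), NME1 8th (14053 ± 3722), snR7-L 13th (10298 ± 2917), LSR1 15th (9541 ± 2254) and RPR1 25th (5295 ± 845). SCR1 exceeded snR19 in 10 of 10 libraries, by 10.1 to 14.5 times, NME1 exceeded snR7-L in 10 of 10, and LSR1 exceeded RPR1 in 10 of 10. The order of snR19 and NME1 differed by state: snR19 was the higher in 5 of 5 [BIG+] libraries and in 2 of 5 naive ones, and NME1 had the higher naive mean. snR7-L was above LSR1 in 2 of 5 [BIG+] libraries and in 3 of 5 naive ones. Over all 10 libraries neither of these neighbours was separated.

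**Figure D1:**
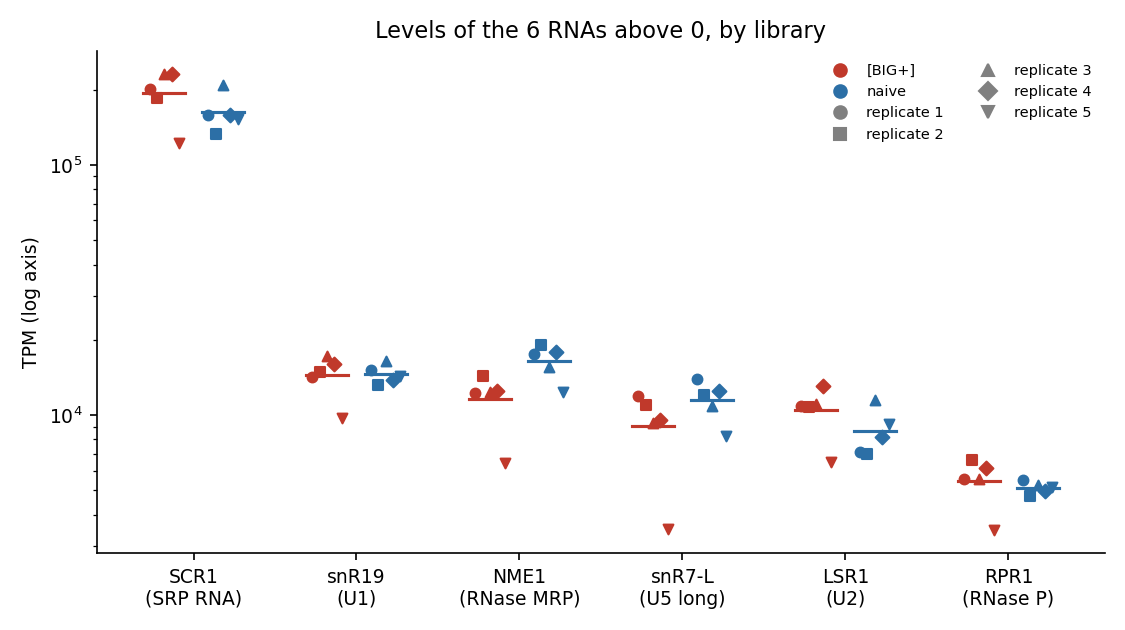
TPM (log axis) of the 6 RNAs above 0 in each library; points are libraries, with the symbol giving the replicate number, and bars are group means of 5. [BIG+] replicate 5 is the lowest of the 10 libraries for all 6 RNAs, and SCR1 lies more than 10 times above snR19 in every library.

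The 3 RNAs at 0 are short. Over all features with a length in the R64 reference table (6066), the shortest above 0 in any library was 162 bases, and all 155 shorter ones were listed at 0 in all libraries, snR6 (112 bases) and snR14 (160 bases) among them. All 299 tRNA features and 41 of the 76 snoRNAs other than NME1 were at 0 as well. Between 162 and 200 bases, 1 of 17 snRNA, snoRNA and other ncRNA features was at 0, and that was snR7-S, whose 179 bases all lie within snR7-L. The zeros of snR6 and snR14 therefore cannot be read as low expression, and no fold is given for them.

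Level and length also went together just above that limit. Of the 35 snoRNAs above 0 other than NME1, the 5 of 162 to 180 bases had a median of 7.86 TPM (6.34 to 73.4), taking each as its mean over the 10 libraries. The 10 of 181 to 200 bases had a median of 335 TPM (38.4 to 3841), and the 7 of 201 to 230 bases 2077 TPM (234 to 20370). The 5 of 231 to 300 bases had a median of 4060 TPM (1592 to 6836) and the 8 longer ones 9818 TPM (1994 to 76792). The ranges of neighbouring classes overlapped, and within 201 to 230 bases, where snR7-L lies, they spanned the levels of snR81 (201 bases, 234 TPM) and snR5 (204 bases, 20370 TPM). How far length at this end sets the level of snR7-L was not tested.

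**Figure D2:**
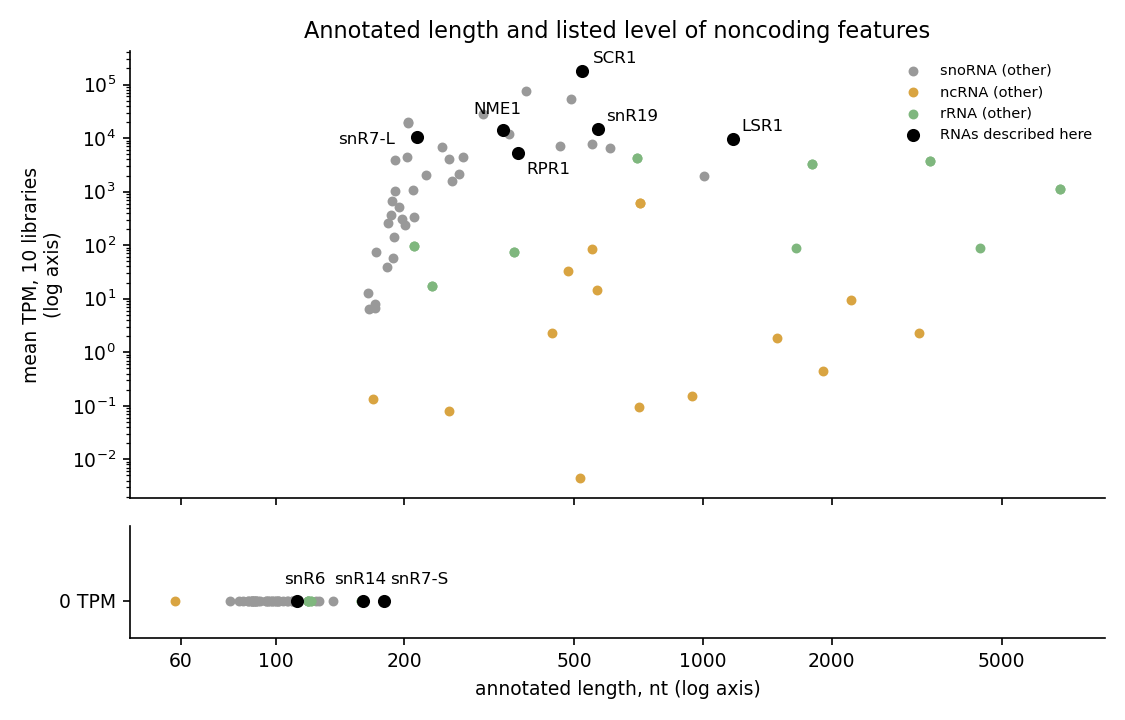
Mean TPM over 10 libraries (log axis; features at 0 in the lower strip) against annotated length in bases (nt, log axis) for noncoding features; black points are the RNAs described here. No feature shorter than 162 bases is above 0, and snR6, snR14 and snR7-S lie in the strip at 0.

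None of the 6 RNAs passed the test across all features. limma on log2(TPM + 1), fitted to all 5732 features with a mean of at least 1 TPM, called 0 of the 6 RNAs at an adjusted p under 0.05, against 0 of all features (0.0%). At an unadjusted p under 0.05 there was 1 of the 6, NME1, which was lower in [BIG+]; 96 of all features (1.67%) were, 82 of them lower (1.43%). Same-numbered libraries deviated together, so the fit was repeated with the replicate number as a block. That paired limma fit also called 0 of the 6, against 35 of 5732 features (0.611%), 33 of them lower (0.576%). In it NME1 and snR7-L, both lower, had an unadjusted p under 0.05, as did 650 of all features (11.3%), 543 of them lower (9.47%). A block by the sets of numbers 1 and 2, 3 and 4, and 5 called 1 of the 6, NME1, as lower, against 43 of 5732 features (0.75%), 40 of them lower (0.698%). The labels do not name these sets. The TPM of 0 of the 6 were without overlap between the states, against 22 of 5732 features (0.384%).

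NME1, the RNA of RNase MRP, was lower in [BIG+] cells in every same-numbered pair. It had 12262.5, 14326, 12388, 12468 and 6455 TPM in [BIG+] replicates 1 to 5, and 17584, 19156, 15609, 17884 and 12395 TPM in naive replicates 1 to 5. Of the [BIG+] libraries 3 lay below all naive ones, and the groups overlapped through naive replicate 5. The means were 11580 ± 2988 TPM in [BIG+] and 16526 ± 2636 TPM in naive cells (SD, n = 5 each). Its log2 fold change was -0.55 ± 0.20 (SE; 95% interval -0.98 to -0.12), with a limma adjusted p of 0.9995; in the paired fit the SE was 0.115 and the adjusted p 0.0949. The set block gave an adjusted p of 0.035 by limma, and 0.033 without [BIG+] replicate 5, with a log2 fold change of -0.45. The labels name no such sets, which were chosen with earlier results of these data known. The set block without [BIG+] replicate 5 was added after the data were seen. Without [BIG+] replicate 5 and without a block the log2 fold change was -0.35 ± 0.13 (SE; limma adjusted p = 0.979). Within numbers 1 and 2 the mean pair difference was -0.47, within 3 and 4 it was -0.43, and for number 5 it was -0.94. Of all 5732 features 588 (10.3%) were lower in [BIG+] in 5 of 5 pairs.

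RPR1, the RNA of RNase P, had nearly the same mean in both states. It had 5548, 6631, 5555, 6134 and 3464 TPM in [BIG+] replicates 1 to 5, and 5487, 4762, 5268, 4960 and 5145 TPM in naive replicates 1 to 5. The naive values lay within a narrow range, and in [BIG+] 4 libraries lay above all of them and 1 below. The means were 5466 ± 1207 TPM in [BIG+] and 5124 ± 279 TPM in naive cells, a log2 fold change of 0.06 ± 0.17 (SE; 95% interval -0.29 to 0.42; limma adjusted p = 0.9995, paired 0.894). Without [BIG+] replicate 5 it was 0.22, and it turned to -0.02 without [BIG+] replicate 2.

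The ratio of RPR1 to NME1, which does not depend on how a library is scaled, was higher in every [BIG+] library than in any naive one. It was 0.452, 0.463, 0.448, 0.492 and 0.537 in [BIG+] replicates 1 to 5, and 0.312, 0.249, 0.338, 0.277 and 0.415 in naive replicates 1 to 5. The means were 0.479 ± 0.0367 in [BIG+] and 0.318 ± 0.0639 in naive cells (SD, n = 5 each), a fold of 1.52. On their own, NME1 had a log2 fold change of -0.55 and RPR1 of 0.06. The share of all features whose ratio to NME1 does not overlap between the states was not computed. The two-sided exact permutation test over all 252 assignments of the libraries gave p = 0.00794, the smallest it can give, and 0.0159 adjusted over the 2 ratios planned and computed. The planned ratios were themselves chosen with earlier results of these data known. Adjusted over all 15 pairs of the 6 RNAs, a family added after the data were seen, the exact permutation p was 0.0595 and did not pass. The paired sign-flip permutation test gave p = 0.0625, which is the smallest that 5 pairs allow. The ratio was higher in [BIG+] in 5 of 5 pairs, by 0.72 (log2) within numbers 1 and 2, 0.62 within 3 and 4 and 0.37 for number 5. Without any 1 library its log2 difference stayed between 0.525 and 0.71, and the exact p between 0.00794 and 0.0159 (0.00794 to 0.0317 adjusted over the 2 ratios).

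The other ratio planned, of U2 to U1, overlapped between the states. LSR1 over snR19 was 0.768, 0.725, 0.645, 0.817 and 0.664 in [BIG+] replicates 1 to 5, and 0.473, 0.529, 0.702, 0.589 and 0.643 in naive replicates 1 to 5. It was higher in [BIG+] in 4 of 5 pairs, and pair 3 went the other way. The exact permutation test gave p = 0.0317 (0.0317 adjusted over the 2 ratios, 0.0951 over all 15 pairs), and the paired permutation test p = 0.188. It did not pass without [BIG+] replicate 1, 2 or 4 or naive replicate 1 (exact p = 0.0714 each). Ratios planned of U4 to U6, of the U5 forms and of U6 to SCR1 could not be computed, since 1 RNA or both were at 0.

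**Figure D3:**
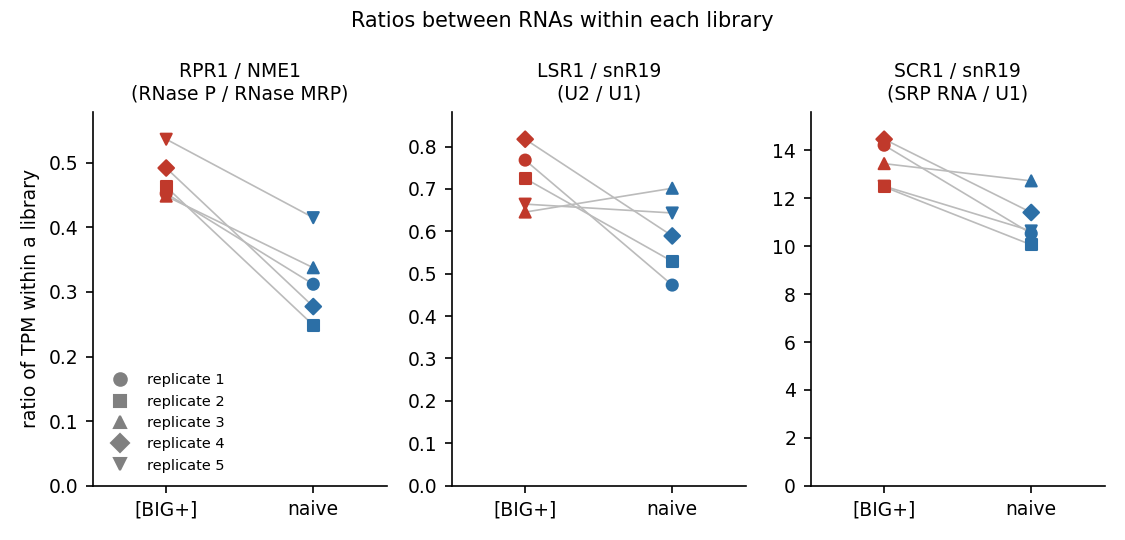
Ratio of the TPM of 2 RNAs within each library, [BIG+] left and naive right; symbols give the replicate number and grey lines join same-numbered libraries. RPR1 over NME1 does not overlap between the states (0.448 to 0.537 in [BIG+] and 0.249 to 0.415 in naive), whereas LSR1 over snR19 and SCR1 over snR19 do.

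LSR1, the U2 RNA and at 1175 bases the longest of the set, had 10891, 10775, 11122, 13052 and 6477 TPM in [BIG+] replicates 1 to 5, and 7143, 7008, 11544, 8172 and 9223 TPM in naive replicates 1 to 5. The naive libraries ranged from 7008 to 11544 TPM, and of the [BIG+] libraries replicate 5 lay below and replicate 4 above all of them. The means were 10464 ± 2414 TPM in [BIG+] and 8618 ± 1864 TPM in naive cells, and the log2 fold change was 0.27 ± 0.19 (SE; 95% interval -0.15 to 0.68; limma adjusted p = 0.9995, paired 0.592). Without [BIG+] replicate 5 it was 0.43 ± 0.15 (limma adjusted p = 0.979).

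snR19, the U1 RNA, had nearly the same mean in both states, as RPR1 had. It had 14181, 14870, 17233, 15970 and 9752 TPM in [BIG+] replicates 1 to 5, and 15096, 13246, 16454, 13871.5 and 14336 TPM in naive replicates 1 to 5. Of the [BIG+] libraries 1 lay below and 1 above all naive ones. The means were 14401 ± 2844 TPM in [BIG+] and 14601 ± 1237 TPM in naive cells, a log2 fold change of -0.04 ± 0.15 (SE; 95% interval -0.36 to 0.28; limma adjusted p = 0.9995, paired 0.922). Its sign turned without [BIG+] replicate 5 (0.09).

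snR7-L, the long form of U5, was lower in [BIG+] in 5 of 5 pairs, as NME1 was. It had 11903, 11021, 9283, 9605 and 3514 TPM in [BIG+] replicates 1 to 5, and 14004.5, 12057, 10873, 12452.5 and 8263 TPM in naive replicates 1 to 5. Naive replicates 1, 2 and 4 lay above all [BIG+] libraries and [BIG+] replicate 5 below all naive ones; the other 6 libraries overlapped. The means were 9065 ± 3280 TPM in [BIG+] and 11530 ± 2142 TPM in naive cells, a log2 fold change of -0.44 ± 0.28 (SE; 95% interval -1.04 to 0.16; limma adjusted p = 0.9995, paired 0.353). Without [BIG+] replicate 5 it was -0.13 ± 0.15 (limma adjusted p = 0.979). All reads of the short form also match the long one, and how such reads were counted is not known here. The value of snR7-L may hold reads from both forms, or may lack reads that match both.

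SCR1, the RNA of SRP, took 12.2 to 23.2% of all TPM in [BIG+] libraries and 13.3 to 20.9% in naive libraries. It had 201706, 185565, 231817, 231050 and 122039 TPM in [BIG+] replicates 1 to 5, and 158895, 133275, 209438, 158225 and 152587 TPM in naive replicates 1 to 5. In [BIG+] 2 libraries lay above all naive ones and 1 below. The means were 194435 ± 45030 TPM in [BIG+] and 162484 ± 28226 TPM in naive cells, a log2 fold change of 0.24 ± 0.17 (SE; 95% interval -0.12 to 0.60; limma adjusted p = 0.9995, paired 0.562). Without [BIG+] replicate 5 it was 0.40 ± 0.12 (limma adjusted p = 0.924).

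Because SCR1 alone holds so much of the table, its level moves the TPM of every other feature. With each library rescaled to the table without SCR1, the log2 fold changes were 0.33 for LSR1, 0.12 for RPR1, 0.02 for snR19, -0.38 for snR7-L and -0.49 for NME1, and 0.30 for SCR1 itself. None of the 6 passed in that fit. In RNA from whole cultures, fewer cells that hold an RNA and less of it per cell cannot be told apart, nor can a lower share from a larger amount of other RNAs.

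[BIG+] replicate 5 was the lowest of the 10 libraries for all 6 RNAs, as it was for 289 of all 5732 features (5.04%) and for 24 of the 140 features of at least 1000 TPM (17.1%). The 6 RNAs together held 15.2% of its TPM, against 24.3 to 28.8% in the other [BIG+] libraries and 19.0 to 26.9% in naive libraries. Nuclear mRNA held 53.4% of that library and snoRNAs other than NME1 13.8%. Its naive counterpart, replicate 5, also had a high mRNA share (52.8%), with snoRNAs at 25.1%. The other 8 libraries had 42.7 to 47.5% mRNA. Leaving [BIG+] replicate 5 out moved the median log2 fold change of all tested features to -0.12, against -0.06 with it. The part of this make-up in each result was not tested. Values without this library are given for the log2 fold changes of the 6 RNAs and for some of the ratios, and not for every other result.

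**Figure D4:**
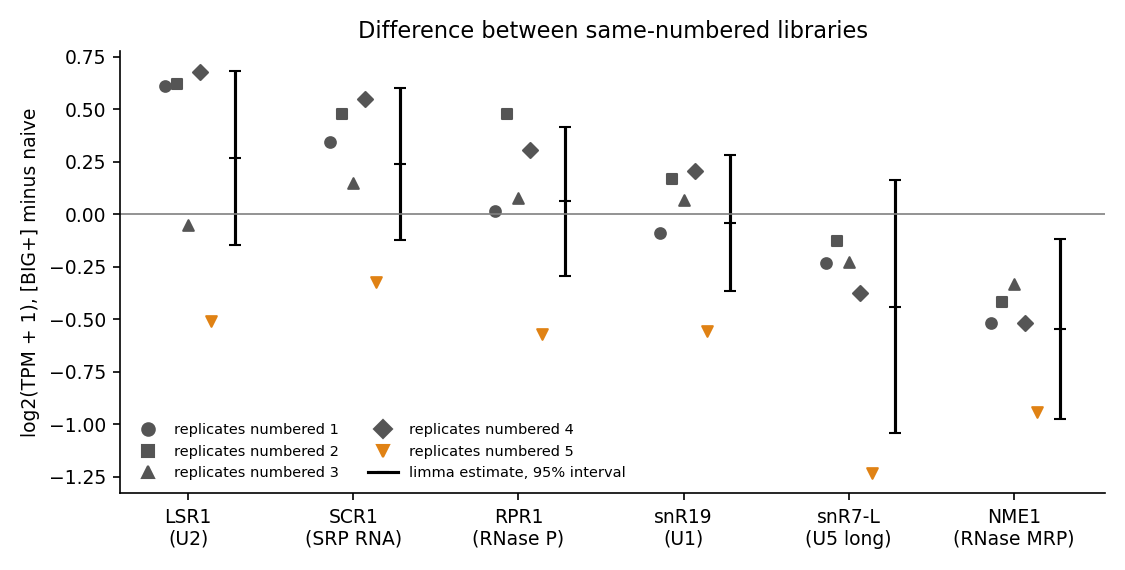
Difference in log2(TPM + 1), [BIG+] minus naive, for each same-numbered pair of libraries, with the limma estimate without a block and its 95% interval. Number 5 (orange) is below 0 for all 6 RNAs, and NME1 and snR7-L are below 0 in all 5 pairs.

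NME1 had nearly the same mean ratio to the snoRNAs in both states; ratios to the snoRNAs were added after the data were seen. The snoRNAs guide chemical modification of rRNA or its cutting, and of 35 tested besides NME1, 29 had a log2 fold change below 0 (median -0.63), against 3800 of all 5732 tested features (median -0.06). limma called 0 of the 35 without a block (0.0% of all features) and 13, all lower, in the paired fit, against 33 of all features called lower there (0.576%). Over the geometric mean of the 32 snoRNAs with at least 10 TPM on average, NME1 stood at 9.34 ± 1.35 in [BIG+] and 9.34 ± 0.414 in naive cells (SD, n = 5 each). The exact permutation test gave p = 0.929 for that ratio, whose log2 difference was -0.01 and lay between -0.08 and 0.05 with any 1 library left out. Most of the tested snoRNAs are shorter than NME1 (15 of 162 to 200 bases and 12 of 201 to 300 bases). The 3 of 301 to 400 bases, the length class of NME1, had a median log2 fold change of -0.06, against -0.55 for NME1.

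The other RNAs differed in how they stood against the snoRNAs. RPR1 over the snoRNA mean was 4.45 ± 0.511 in [BIG+] and 2.98 ± 0.642 in naive cells and did not overlap between the states (exact permutation p = 0.00794, 0.0476 adjusted over the 6 RNAs). SCR1 over that mean was 160.5 ± 37.7 in [BIG+] and 94.7 ± 25.4 in naive cells (exact permutation p = 0.0159, adjusted 0.0476), and LSR1 8.57 ± 1.64 in [BIG+] and 5.07 ± 1.73 in naive cells (exact permutation p = 0.0238, adjusted 0.0476). These ratios of RPR1, SCR1 and LSR1 were each higher in [BIG+] in 5 of 5 pairs (paired permutation p = 0.0625, the smallest possible). These calls did not all hold with 1 library left out. For RPR1 the exact permutation p before adjustment stayed between 0.00794 and 0.0159 in each such case. Without [BIG+] replicate 1, 3, 4 or 5 none of these 3 ratios passed, with exact permutation p adjusted over the 6 RNAs of 0.0714 to 0.127. Without naive replicate 2, SCR1 and LSR1 did not pass (adjusted 0.0635 each), and without [BIG+] replicate 2 or any other naive library all 3 did. snR19 missed the threshold (11.9 ± 2.53 in [BIG+] and 8.49 ± 1.90 in naive cells; exact permutation p = 0.0397, adjusted 0.0595), and snR7-L was at 7.14 ± 1.75 in [BIG+] and 6.53 ± 0.859 in naive cells (exact permutation p = 0.659, adjusted 0.791). These 6 ratios share the snoRNA denominator and are not independent of each other. That denominator was itself lower in [BIG+] in every same-numbered pair (830 to 1600 TPM in [BIG+] and 1319 to 2189 TPM in naive libraries). On their own, RPR1, SCR1 and LSR1 had log2 fold changes of 0.06, 0.24 and 0.27. The share of all features that rise over this denominator was not tested.

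Among the 15 pairs of the 6 RNAs, 7 ratios had an exact permutation p under 0.05, and 0 had one after adjustment over the 15. Besides RPR1 over NME1, LSR1 over NME1 did not overlap between the states: it was 0.918 ± 0.115 in [BIG+] and 0.543 ± 0.185 in naive cells (exact permutation p = 0.00794, adjusted 0.0595). Both have NME1 as denominator, and the share of all features that separate over NME1 was not computed. SCR1 over NME1 was 17.1 ± 2.53 in [BIG+] and 10.1 ± 2.67 in naive cells (exact permutation p = 0.0159, adjusted 0.0795). SCR1 over LSR1, in contrast, was 18.6 ± 1.4 in [BIG+] and 19.1 ± 2.09 in naive cells (exact permutation p = 0.73, adjusted 0.73), and it ranged between 16.5 and 22.2 over all 10 libraries.

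Length went along with these differences, and its part in them was not tested. By length, the log2 fold changes were -0.44 for snR7-L (214 bases), -0.55 for NME1 (340), 0.06 for RPR1 (369), 0.24 for SCR1 (522), -0.04 for snR19 (568) and 0.27 for LSR1 (1175). Among tested snoRNAs the median was -0.68 for 15 of 162 to 200 bases and -0.78 for 12 of 201 to 300 bases, against -0.06 for 3 of 301 to 400 bases and 0.10 for 5 longer ones. For nuclear mRNAs of the same 4 length classes the medians were -0.03, -0.07, -0.05 and 0.00 (27, 132, 232 and 2183 genes). NME1 lay below the range of the 3 snoRNAs of its length class, which ran from -0.35 to 0.06.

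The features most like each RNA were sought as those with the smallest SD, over the 10 libraries, of the log2 ratio of the 2 values, among 2374 features outside the set with a mean of at least 10 TPM. Picked as the smallest of 2374, these SDs lie below the median of the features searched by choice, and the medians only give the scale. Such an SD also holds the difference between the states and the low [BIG+] replicate 5. For NME1 the closest were SNR17B and SNR17A, the 2 genes of the U3 snoRNA (SD 0.125 each, median 0.631). U3 acts in cutting the precursor of rRNA. SNR17A shares its strand and place with IRC13. How reads that match both U3 genes were counted is not known here, so their 2 values may not be independent. For snR7-L the closest were SNR5 and SNR83 (0.163 and 0.229, median 0.735), both snoRNAs that guide pseudouridylation. SCR1 was closest to SNR84 (0.107) and YCR024C-B (0.168; median 0.54), and LSR1 to SNR84 and SNR37 (0.156 and 0.169; median 0.547). For snR19 (0.091 and 0.0965; median 0.463) and for RPR1 (0.129 and 0.134; median 0.47) the same genes came first, YPR053C and NHP6A, a chromatin protein gene; these overlap on the same strand, so their values are not independent. Within the set, the SD was 0.126 between SCR1 and LSR1, 0.138 between snR19 and RPR1 and 0.223 between NME1 and snR7-L, and it was 0.365 to 0.552 between NME1 and the other 4 RNAs.

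The spread between cultures of a state was not unusual for these RNAs, apart from snR7-L. The pooled within-state SD of log2(TPM + 1) was 0.241 for snR19, 0.264 for RPR1, 0.317 for SCR1, 0.343 for LSR1 and 0.365 for NME1, where the median of all tested features was 0.305. For snR7-L it was 0.545, above that of 91.6% of tested features. By state, the SDs of these RNAs ran from 0.318 to 0.715 in [BIG+], all above the median of tested features there (0.277). In naive cells they ran from 0.0786 to 0.297, all below the median there (0.321). RPR1 had the smallest SD within naive cells, 0.0786, against 0.365 within [BIG+]. The [BIG+] SDs include replicate 5, whose log2 deviations from the mean of the 10 libraries ran from -0.52 (SCR1) to -1.47 (snR7-L). In the other [BIG+] libraries the deviations ran from -0.14 (NME1, replicate 1) to 0.49 (LSR1, replicate 4). SDs without replicate 5 were not computed.

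No gene for a protein of these particles passed the test. Over 9 lists, 109 genes were tested. Of these, limma called 0 higher and 0 lower without the block (0.0% of all features) and 0 with it (0.611% of all features). In the paired limma fit 8 had an unadjusted p under 0.05, against 650 of all 5732 features (11.3%). Of the 109, 80 had a log2 fold change below 0 and 29 above (median -0.05), where 3754 of 5662 tested mRNAs were below 0 (median -0.06).

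Among spliceosomal proteins, 6 of 10 for U1 (median -0.04), 8 of 10 for U2 (-0.06), 12 of 14 for U4, U5 and U6 (-0.04) and 10 of 14 Sm and Lsm genes (-0.05) were below 0. NAM8, the most abundant U1 gene, averaged 12.5 ± 1.18 TPM in [BIG+] and 11.5 ± 0.984 TPM in naive cells. SNU13, which binds U4 and also the box C/D snoRNAs, averaged 316 ± 83.9 TPM in [BIG+] and 339.5 ± 111 TPM in naive cells, and YSF3, of the U2 particle, 19.3 ± 4.76 TPM in [BIG+] and 20.6 ± 3.87 TPM in naive cells. The largest differences in these lists were those of MUD1 (U1, -0.22 ± 0.30), MSL1 (U2, -0.20 ± 0.29), SNU23 (U4, U5 and U6, 0.37 ± 0.20) and SMB1 (Sm, 0.35 ± 0.22; SE). Their paired limma adjusted p values were 0.457, 0.778, 0.263 and 0.314. SMX3, the most abundant Sm gene, averaged 132 ± 19.8 TPM in [BIG+] and 143 ± 19.4 TPM in naive cells. CUS1, PRP3, SPP381 and PRP24 were under the filter of 1 TPM.

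For the SRP proteins and receptor, 7 of 8 genes were above 0 (median 0.04), the gene of the beta subunit of the SRP receptor by the most (12.0 ± 3.63 TPM in [BIG+] and 9.84 ± 2.66 TPM in naive cells; 0.24 ± 0.23, SE; paired limma adjusted p = 0.475). SRP14, the most abundant, averaged 23.3 ± 6.73 TPM in [BIG+] and 21.5 ± 4.27 TPM in naive cells. For RNase P and MRP 8 of 11 were below 0 (median -0.09). RMP1, a protein found in RNase MRP and not in RNase P, had the largest difference there, 0.805 ± 0.431 TPM in [BIG+] and 1.31 ± 0.466 TPM in naive cells, lower in 5 of 5 pairs (-0.37 ± 0.18, SE; paired limma adjusted p = 0.314). POP5, shared by both enzymes, averaged 18.6 ± 4.37 TPM in [BIG+] and 20.0 ± 5.46 TPM in naive cells.

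All 4 tested telomerase genes were below 0 (median -0.03), by at most 0.06 for EST1, and EST3 averaged 16.3 ± 6.20 TPM in [BIG+] and 16.7 ± 6.71 TPM in naive cells; EST2 was under the filter. Of RNA polymerase III and its factors, 16 of 22 were below 0 (median -0.09). RPC10, a subunit shared by all 3 nuclear RNA polymerases, was both the most abundant and the most different, at 142 ± 25.1 TPM in [BIG+] and 177 ± 38.8 TPM in naive cells and lower in 5 of 5 pairs (-0.31 ± 0.19, SE; paired limma adjusted p = 0.277). It is 213 bases long. Of 16 genes for processing and decay of small RNAs, 15 were below 0 (median -0.10). TGS1, which adds the trimethyl cap to small nuclear RNAs, averaged 1.78 ± 0.682 TPM in [BIG+] and 2.35 ± 0.756 TPM in naive cells (-0.28 ± 0.20, SE; paired limma adjusted p = 0.42). LHP1, the yeast La protein that binds new polymerase III transcripts, averaged 35.8 ± 6.20 TPM in [BIG+] and 32.9 ± 5.72 TPM in naive cells (0.12 ± 0.18, SE; paired limma adjusted p = 0.694).

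**Figure D5:**
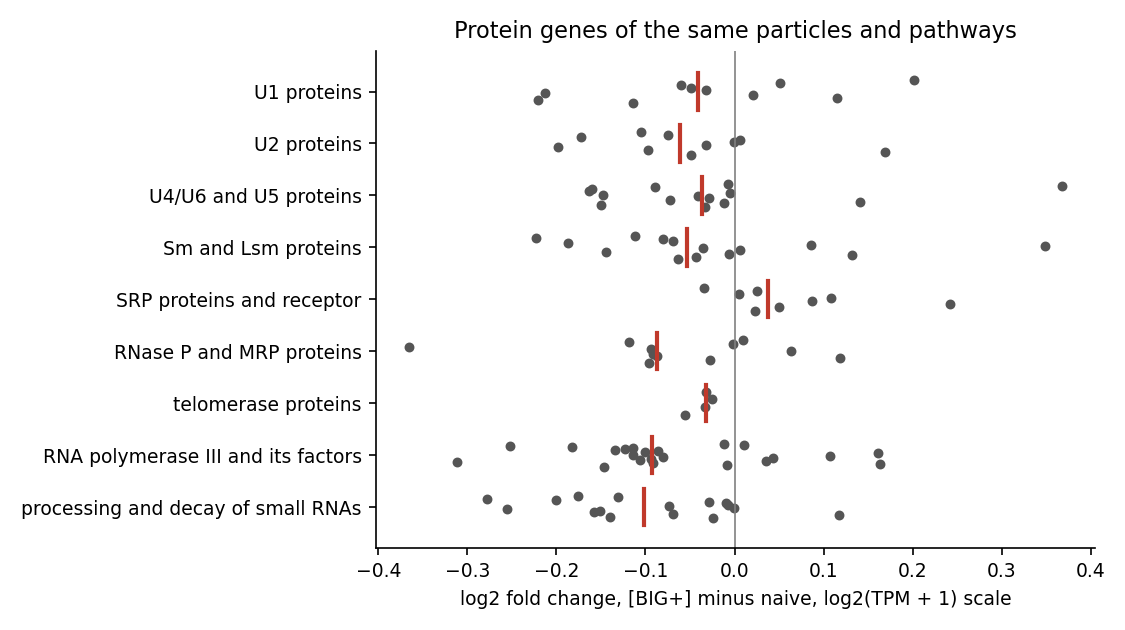
log2 fold change ([BIG+] minus naive, log2(TPM + 1) scale) of each tested protein gene, by list; grey points are genes and red lines list medians. List medians lie between -0.10 and 0.04, and none of the 109 genes passed the test in the fit without or with the replicate block.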

How the data were processed

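The authors deposited 1 table of TPM values, 1 column per library of rRNA-depleted, fragmented total RNA; 4 of its lines were emptied for this work. Bowtie2, HTSeq and build R64 are named per the submitters' processing notes, with versions, annotation release and use of strand not given in the sources used here. TPM keep no depth, so precision rests on the 5 cultures per state. Lengths, places and sequences are from RefSeq R64.

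The test was limma 3.58.1 (R 4.3.3; eBayes with trend, two-sided) on log2(TPM + 1), [BIG+] minus naive, with Benjamini-Hochberg adjustment over the 5732 features averaging at least 1 TPM and a threshold of 0.05. Ratios within a library were tested by exact permutation. Tables and figures were made in Python 3.11.15, and the limma step was tested on simulated data. Libraries with the same number deviated together from their state's mean (correlations 0.743, 0.569, 0.531, 0.355 and 0.475 for numbers 1 to 5), which is why pairs are used beside the unpaired fit. The labels state no shared day or batch, and replicates 2 and 4 of each state were closest to replicates 1 and 3 of the other.

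The RNAs, gene lists, ratios and alternatives were chosen with earlier results of these data known. Named genes were the 10 RNAs, the 2 features most like each, and in each protein list those past the threshold, the most abundant and the most different. The snoRNA length classes, and snR81 and snR5 within them, were chosen after the values were seen.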

Additional observations from a re-analysis of the deposited data

Results flagged for a closer look

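In groups of 5, a library was singled out where its gap to the nearest other library was more than 0.71 of the group's range, which chance gives in about 1 of 20 groups. Of 20 groups tested, 2 had one, both through the same library. NME1 in [BIG+] replicate 5, at 6455 TPM, lay 0.738 of the range below the next [BIG+] library. The summed level of the 5 RNAs other than SCR1 in that library, 29662 TPM, lay 0.899 of the range below the next.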

How the results depend on the processing

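Of the 6 RNAs, 0 were called in 30 of 32 alternatives, and 1, NME1, with the block by replicate sets, also when [BIG+] replicate 5 was left out. The count of features called, 0, became 35 with the replicate block (16, 14, 10, 18 and 35 without pair 1 to 5), 43 with the set block (52 without [BIG+] replicate 5), 1 with a filter of 10 TPM and 3 with median-of-ratios, nuclear mRNA or quantile scaling. With the replicate block these scalings gave 14, 34 and 17, and the table without SCR1 gave 21. Without any 1 library it was 0. Of the protein genes, 1 was called with the set block without [BIG+] replicate 5, SNU23 (adjusted p = 0.049).

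The log2 fold change of snR19, -0.0418 (-0.113 to 0.0922 with 1 library left out), turned to 0.0922 without [BIG+] replicate 5, 0.00228 without naive replicate 3, 0.0867 without both libraries numbered 5 (paired or with the set block likewise), 0.0266 with median-of-ratios scaling, 0.197 with quantile scaling and 0.0154 without SCR1 in the table, with or without the block. That of RPR1, 0.0612 (-0.0169 to 0.217 with 1 library left out), turned to -0.0169 without [BIG+] replicate 2 and, paired, to -0.043 without replicate 2 and -0.000116 without replicate 4. LSR1 (0.166 to 0.463), SCR1 (0.161 to 0.397), snR7-L (-0.567 to -0.127) and NME1 (-0.647 to -0.326) kept their signs in all alternatives that gave a value; quantile scaling gives none for SCR1, the highest feature of each library.

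With the replicate block (paired sign flip), the log2 ratio differences of 0.608 (RPR1 over NME1) and 0.31 (LSR1 over snR19) had p = 0.0625 and 0.188 by permutation. LSR1 over snR19 ran from 0.236 to 0.378 with 1 library left out. SCR1 over LSR1, -0.0298 (-0.0792 to 0.0276 with 1 library left out), changed sign without naive replicate 1. NME1 over the snoRNAs, -0.0108 (-0.0824 to 0.0523), turned to 0.0127, 0.00153 and 0.0523 without [BIG+] replicate 1, 2 or 5 and to 0.0101 without naive replicate 1. The summed level of the 6 RNAs (0.165, log2) was -0.146 without SCR1. The cause of these changes was not tested. Alternatives with both a block and a scaling other than median-of-ratios, those without SCR1, those without both libraries numbered 5 and the set block without [BIG+] replicate 5 were added after the data were seen.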
